A study of Mus musculus with 6 samples.

Results

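The genes described here are 9 members of the bone morphogenetic protein (BMP) pathway and the inhibitor of DNA binding (ID) family, Bmp4, Bmp7, Bmpr1a, Smad6, Grem1, Id1, Id2, Id3 and Id4. They were chosen by name, with earlier results of these data known. All 9 were found among the 22180 genes measured with exactly 1 gene symbol per row. Each of the 9 had a single row in the table. The signals come from freshly sorted basal cells of the mouse mammary epithelium, profiled on 6 whole-transcript arrays. The knockout group (KO, 3 arrays) carried the genotype Trp53-/-, p16ink4a-/- and p19arf-/-, so both products of Cdkn2a and the p53 gene were deleted, and the other 3 arrays were wild type (WT). All mice were virgin adult females aged 8 to 14 weeks, and each array was 1 biological replicate. The labels name no strain, no oestrous stage and no restriction of the deletions to one tissue.

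BMPs are secreted ligands of the TGF-beta superfamily. They bind paired type I and type II receptor kinases, which phosphorylate receptor-regulated SMAD proteins, and these enter the nucleus with SMAD4 and switch on target genes. Secreted antagonists such as gremlin hold the ligands away from the receptors, and the inhibitory SMADs act inside the cell. The ID genes are among the best known BMP targets. ID proteins have a helix-loop-helix domain but no DNA-binding region, so they pair with E proteins and other helix-loop-helix factors and keep them off DNA. ID1 is known to restrain transcription of p16Ink4a, a product of Cdkn2a, and ID4 is known as a regulator of immature basal cells in the mouse mammary gland.

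All values are log2 signals after the RMA normalization made by the authors, and a difference of 1 is a doubling. No array was identical to another, and the medians of the arrays over all rows lay between 5.22 and 5.39. The sorted cells carried the basal markers, and the mean of the 9 measured, of 10 listed, was 10.3 to 10.7 on the KO arrays and 10.3 to 10.6 on the WT arrays. Their median log2 fold change was -0.04, with 3 of the 9 higher and 6 lower in KO. Trp63, at 0.35, was the highest, Myh11 was at 0.23, and Krt14, at -0.12, was the lowest. Of 12 luminal markers listed, 10 were measured. Their mean was 7.37 to 7.88 on the KO arrays and 7.37 to 8.61 on the WT arrays, highest on WT replicate 2. Of these markers 9 were lower and 1 higher in KO, with a median log2 fold change of -0.41. The mean of 10 fibroblast markers was 7.03 to 7.10 on the KO arrays and 6.42 to 6.78 on the WT arrays, so each KO array lay above each WT array. The mean of 16 immediate early and dissociation stress genes was 9.78 to 10.9 on the KO arrays and 9.56 to 10.3 on the WT arrays. Replicate 2 had the highest and replicate 3 the lowest mean of this list in KO and in WT cells. Cdkn2a signal was 6.25, 6.31 and 6.39 on the KO arrays and 6.42, 5.84 and 6.48 on the WT arrays, and the place of its probes on the gene is not given in the sources used here. Trp53 was not analysed here, so neither deletion could be read from the arrays.

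The comparison asks which of these genes differ in level between KO and WT basal cells. In limma, with adjustment over all genes, 0 of the 9 genes passed an adjusted p of 0.05 in either direction, and neither did any other gene (0% of 22180). At an unadjusted p under 0.05 the count was also 0 of 9, where 3.32% of all genes lay. For 0 of the 9 did the KO and WT arrays separate without overlap, against 7.68% of all genes. The members' median log2 fold change was -0.0016, beside -0.0067 over all genes. The log2 fold changes of the 5 BMP pathway genes and of Id4 lay between -0.07 and 0.13, whereas those of Id1, Id2 and Id3 were -0.49, 0.57 and -0.44. In bulk samples such as these, fewer cells of a type and less RNA per cell cannot be told apart.

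**Figure D1:**
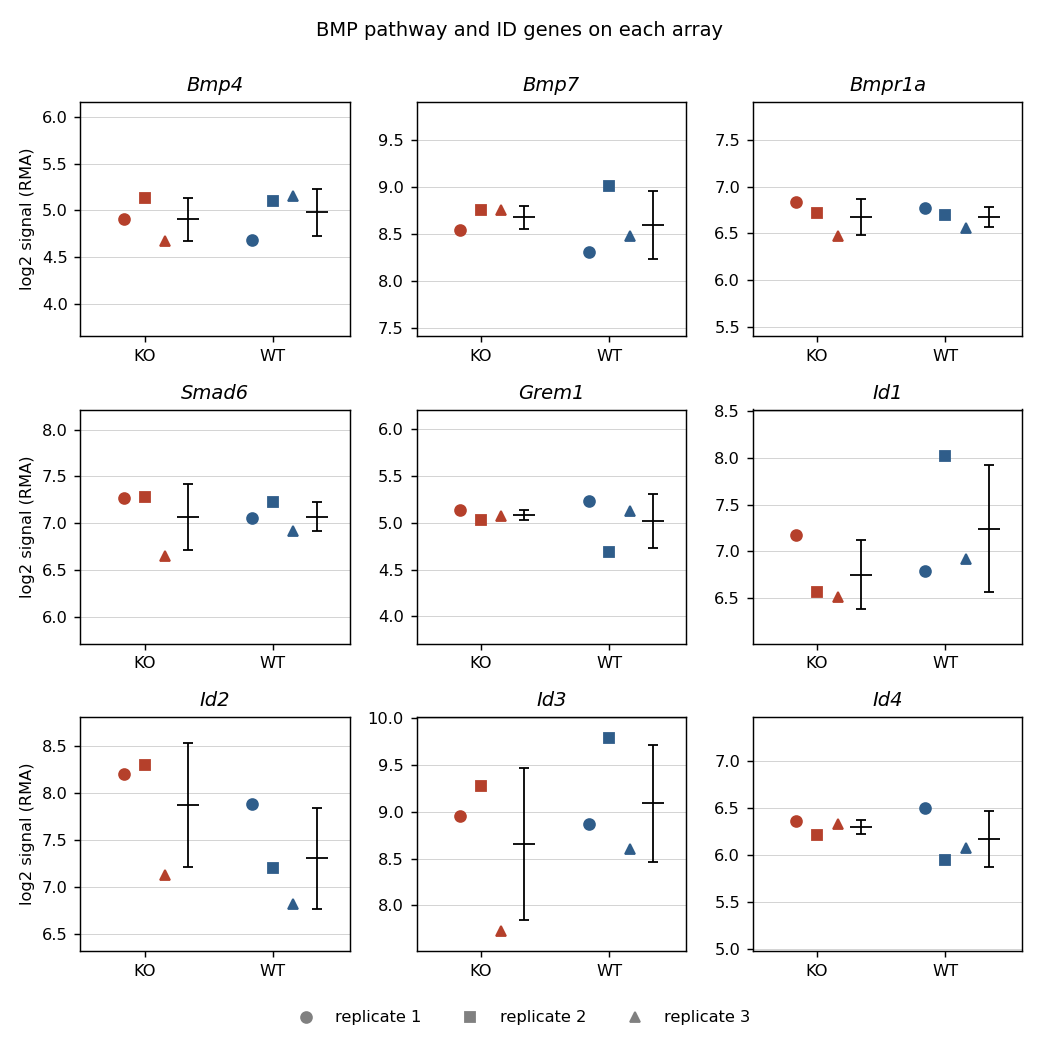
Log2 signal of each gene on the 6 arrays, with KO arrays in red on the left and WT arrays in blue on the right of each panel. The marker shape gives the replicate number, the bar the mean and SD of 3 arrays, and every panel spans the same height in log2 units. KO and WT arrays overlap in all 9 panels, and the points are widest apart in Id1, Id2 and Id3.

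Neither ligand differed between the genotypes beyond the spread of its arrays. Bmp7, which signals through type I and type II receptors in many epithelia, read 8.54, 8.75 and 8.75 on the KO arrays, against 8.31, 9.01 and 8.48 on the WT arrays. The KO values all lay inside the WT range. The means were 8.68 ± 0.12 in KO cells and 8.60 ± 0.36 in WT cells (SD, n = 3 each), a log2 fold change of 0.08 ± 0.21 (SE, limma adjusted p = 1.0). The 95% interval of the KO over WT ratio ran from 0.762 to 1.46. Bmp4, a ligand best known from mesenchyme, read 4.91, 5.13 and 4.67 on the KO arrays, against 4.69, 5.10 and 5.15 on the WT arrays. These signals lay below 5.78, the median of all gene means, and the groups overlapped almost fully. The log2 fold change of Bmp4 was -0.07 ± 0.18 (SE, limma adjusted p = 1.0), and its ratio interval ran from 0.719 to 1.25.

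Bmpr1a encodes the type I receptor ALK3, which carries the signal of BMP ligands across the membrane. It read 6.84, 6.72 and 6.47 on the KO arrays, against 6.77, 6.70 and 6.56 on the WT arrays. The means were 6.68 ± 0.19 in KO cells and 6.68 ± 0.11 in WT cells, and the KO over WT ratio was 0.999 with an interval from 0.769 to 1.30 (limma adjusted p = 1.0). Among the 9 genes Bmpr1a had the smallest spread between arrays of one genotype.

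The inhibitors were flat on average. Smad6 encodes the inhibitory SMAD that BMP signalling itself induces as negative feedback. It read 7.27, 7.28 and 6.65 on the KO arrays, against 7.06, 7.23 and 6.92 on the WT arrays, with means of 7.07 in both genotypes. KO replicate 3 was the lowest of all 6 arrays, and the ratio interval ran from 0.717 to 1.39 around 0.997 (limma adjusted p = 1.0). Without KO replicate 3 the log2 fold change of Smad6 was 0.20. Grem1 encodes gremlin, a secreted antagonist that binds BMP ligands. It read 5.14, 5.03 and 5.07 on the KO arrays, against 5.23, 4.69 and 5.13 on the WT arrays, all below the median of all gene means. The log2 fold change of Grem1 was 0.06 ± 0.16 (SE, limma adjusted p = 1.0), and WT replicate 2 was the only array apart from the rest. Bmp4 and Grem1 are both known from stromal cells, and the fibroblast marker mean was 0.43 log2 units higher in KO than in WT cells. The median of those 10 markers was 0.13, with Pdgfra, Dcn, Lum and Dpt between 0.54 and 1.28 and the other 6, among them Col1a1, Col1a2 and Col3a1, between -0.03 and 0.14. The part of these cells in the values of Bmp4 and Grem1 was not tested.

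**Figure D2:**
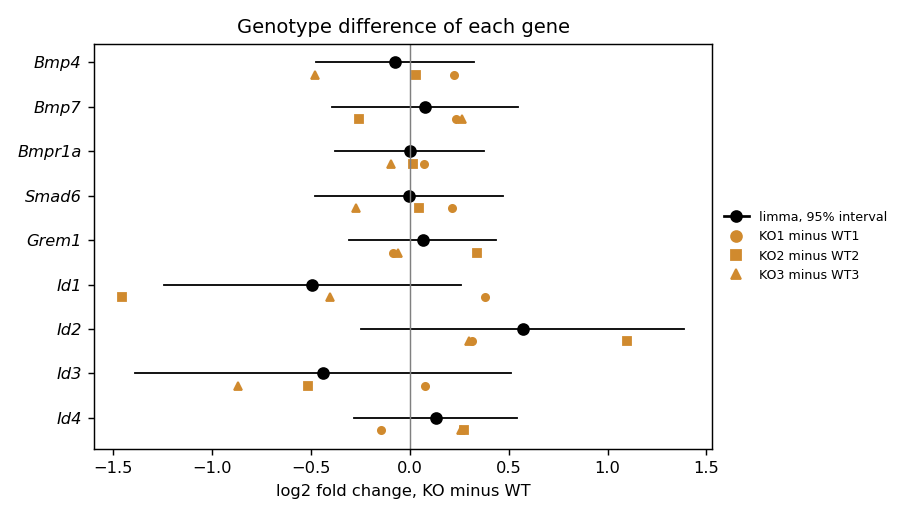
Log2 fold change of each gene, KO minus WT, as the limma estimate with its 95% interval (black) and as the 3 differences between arrays of the same replicate number (orange). All 9 intervals include 0. The 3 differences of Id2 are 0.31, 1.10 and 0.30, all above 0, and those of Id1 run from -1.45 to 0.38.

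Id2 had the largest difference among the 9 genes. Id2 is needed for the growth of milk-producing alveoli in the pregnant mouse gland. It read 8.20, 8.30 and 7.12 on the KO arrays, against 7.88, 7.20 and 6.82 on the WT arrays. KO replicates 1 and 2 were above every WT array, and KO replicate 3 was below WT replicates 1 and 2. The means were 7.87 ± 0.66 in KO cells and 7.30 ± 0.54 in WT cells (SD, n = 3 each), a ratio of 1.49 with an interval from 0.843 to 2.62 (limma adjusted p = 1.0). Arrays of the same number, which the labels do not call pairs, differed by 0.31, 1.10 and 0.30. Each difference was higher in KO, which held for 11.5% of all genes. With replicate number as a block Id2 was the 1 of 9 members under an unadjusted limma p of 0.05, where 5.01% of all genes lay, and its adjusted p was 0.924. Its log2 fold change lay between 0.33 without WT replicate 3 and 0.95 without KO replicate 3. The immediate early list also had a higher mean in KO than in WT at each of the 3 numbers, and its part in the Id2 values was not tested.

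Id1 and Id3 had means that were lower in KO cells, and both values rested on single arrays. Id1, the family member known for restraining p16Ink4a, read 7.18, 6.57 and 6.51 on the KO arrays, against 6.79, 8.02 and 6.92 on the WT arrays. WT replicate 2 stood 0.85 above the next array, and the other 5 arrays were intermixed. The means were 6.75 ± 0.37 in KO cells and 7.24 ± 0.68 in WT cells (SD, n = 3 each), a ratio of 0.711 with an interval from 0.422 to 1.20 (limma adjusted p = 1.0). Without WT replicate 2 the log2 fold change of Id1 was -0.10. Id3, which acts together with Id1 in developing mouse vessels, read 8.95, 9.28 and 7.73 on the KO arrays, against 8.87, 9.79 and 8.60 on the WT arrays. Its highest array was again WT replicate 2 and its lowest was KO replicate 3. The ratio of Id3 was 0.738 with an interval from 0.382 to 1.43 (limma adjusted p = 1.0), and the log2 fold change was 0.02 without KO replicate 3 and -0.09 without WT replicate 2.

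Id4, the family member tied to immature basal cells, was the steadiest ID gene. It read 6.36, 6.21 and 6.33 on the KO arrays, against 6.50, 5.94 and 6.07 on the WT arrays. The KO arrays lay inside the WT range. The means were 6.30 ± 0.08 in KO cells and 6.17 ± 0.30 in WT cells (SD, n = 3 each), a ratio of 1.09 with an interval from 0.823 to 1.45 (limma adjusted p = 1.0). Without WT replicate 1 the log2 fold change was 0.30, and without WT replicate 2 it was 0.01.

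The spread between replicate arrays set Id1, Id2 and Id3 apart from the other members. The SD between arrays of one genotype, pooled over both, was 0.55 for Id1, 0.60 for Id2 and 0.72 for Id3. Of all genes, 97.1% had a smaller SD than Id1, 98.1% a smaller SD than Id2 and 99.1% a smaller SD than Id3. Among genes whose mean signal lay within 0.5 log2 units of each, the shares were 94.7%, 97.1% and 98.6%. The SD of the other 6 members lay between 0.16 for Bmpr1a and 0.28 for Smad6, where the median gene had 0.21. The ratio intervals of Id1, Id2 and Id3 reached past a doubling or a halving on one side, and those of the other 6 members stayed within 0.717 and 1.46. The median SD was 0.60 over the immediate early list and 0.58 over the luminal markers, 2 lists with a spread of similar size.

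**Figure D3:**
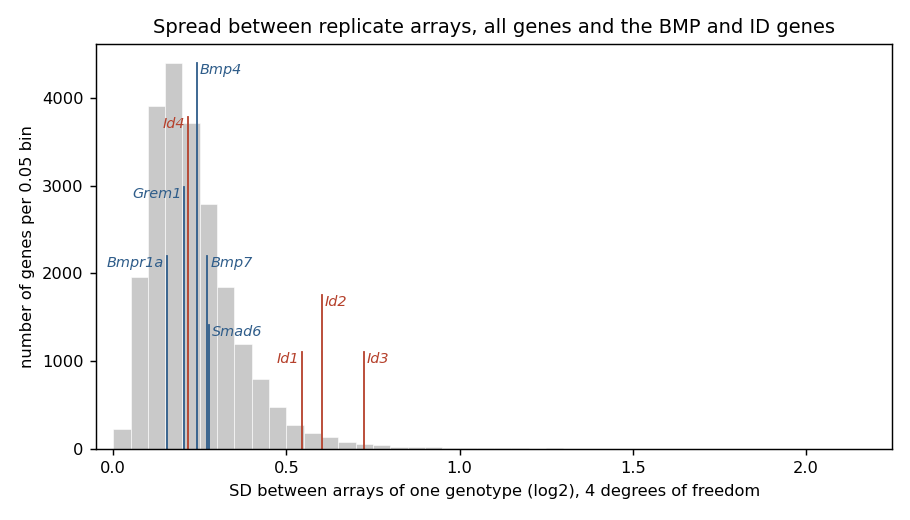
Histogram of the pooled SD between arrays of one genotype over all 22180 genes, in bins of 0.05 log2 units, with a vertical line at each of the 9 genes (ID genes red, BMP pathway genes blue; line height has no meaning). Id1, Id2 and Id3 stand at 0.55, 0.60 and 0.72 in the right tail, and the other 6 genes lie between 0.16 and 0.28.

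The arrays that were high and low were not the same for each ID gene. Id1 and Id3 both had their highest value on WT replicate 2, the array with the highest luminal marker mean, 8.61. Id4 had its lowest value on that array. Id2 was below the mean of its 6 arrays there. WT replicate 3 had the next highest luminal mean, 8.25, but read 6.92 for Id1 and 8.60 for Id3, both below their 6-array means. Id3 followed the order of the immediate early list within each genotype, with replicate 2 highest and replicate 3 lowest in KO and in WT cells. The basal marker mean had that same order in both genotypes, so the order does not single out the immediate early list. Id2 was lowest at replicate 3 in both genotypes, like the means of both lists, but was highest at replicate 1 in WT cells. The mean of 10 endothelial markers, cells in which Id1 and Id3 are known to be abundant, was 5.49 to 5.56 on the KO arrays and 5.37 to 5.61 on the WT arrays. On WT replicate 2 the endothelial mean was 5.40. The part of the luminal, basal, endothelial and immediate early levels in the ID values was not tested.

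**Figure D4:**
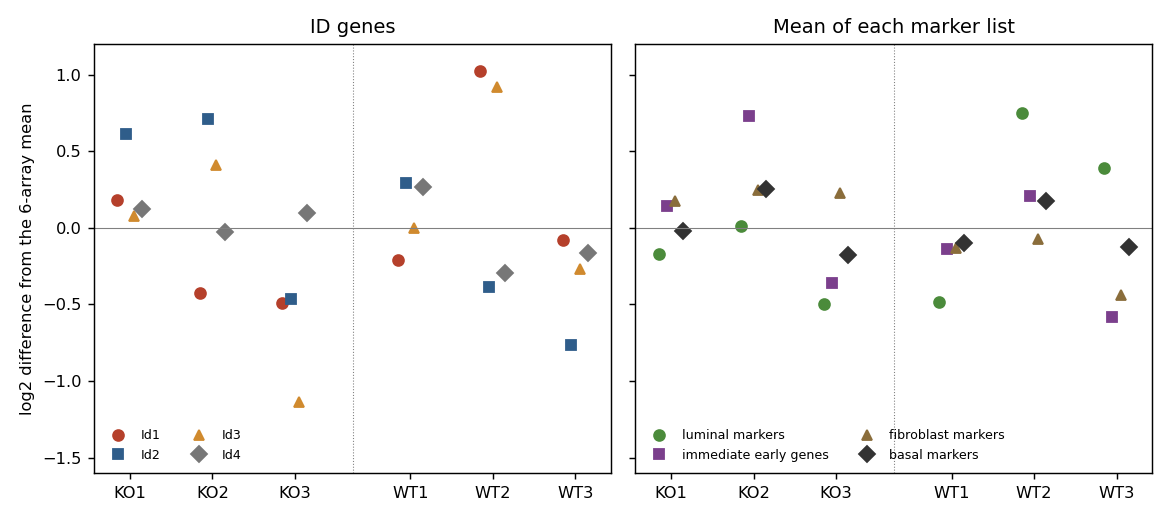
Log2 difference of each array from the 6-array mean, for the 4 ID genes (left) and for the mean of each marker list (right), with the KO arrays on the left of each panel and the WT arrays on the right. Id1 and Id3 are highest on WT replicate 2, as is the luminal marker mean, while Id2 is highest on KO replicates 1 and 2. On WT replicate 3, where the luminal mean is next highest, Id1 and Id3 lie below their 6-array means.

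Promoter windows of 7 of the 9 genes were found in RefSeq (GRCm38.p6), each from 250 bases before to 50 after the annotated start. No window was found for Id1 or Bmp7. The windows of Id2, Id3 and Id4, the ID genes with a window, are shown, and they were searched for 3 short motifs. Of these, Id2 and Id3 had wide differences between KO and WT and Id4 did not. GGCGCC is the palindromic site known to bind SMAD1 and SMAD5. CANNTG is the E-box bound by the E proteins that ID proteins sequester. GTCT is the short SMAD box. Both strands were searched, and capitals mark GGCGCC and CANNTG, which did not overlap in these windows.
Id2, chr12:25096043-25096342, minus strand: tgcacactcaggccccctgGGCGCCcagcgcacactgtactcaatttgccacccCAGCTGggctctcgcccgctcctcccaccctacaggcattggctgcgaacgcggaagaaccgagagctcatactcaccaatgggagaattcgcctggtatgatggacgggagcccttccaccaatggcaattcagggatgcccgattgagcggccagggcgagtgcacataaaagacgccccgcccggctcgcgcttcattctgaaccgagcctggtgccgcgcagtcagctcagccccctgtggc
Id3, chr4:136143572-136143871, plus strand: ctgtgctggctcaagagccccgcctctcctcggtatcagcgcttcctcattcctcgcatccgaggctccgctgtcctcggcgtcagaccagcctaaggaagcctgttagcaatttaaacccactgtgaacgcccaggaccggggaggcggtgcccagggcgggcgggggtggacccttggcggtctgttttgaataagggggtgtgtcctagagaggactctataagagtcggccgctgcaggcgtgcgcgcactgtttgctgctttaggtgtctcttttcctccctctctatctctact
Id4, chr13:48260866-48261165, plus strand: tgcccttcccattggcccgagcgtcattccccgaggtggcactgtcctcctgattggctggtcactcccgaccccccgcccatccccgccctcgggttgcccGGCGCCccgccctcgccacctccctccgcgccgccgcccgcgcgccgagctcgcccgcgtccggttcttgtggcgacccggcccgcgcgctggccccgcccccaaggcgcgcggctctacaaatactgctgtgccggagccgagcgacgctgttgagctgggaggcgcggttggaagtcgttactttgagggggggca

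The Id2 window held 1 GGCGCC at position -231 from the start and 1 CANNTG at -196. The Id4 window held 1 GGCGCC at -148 and 0 CANNTG. The Id3 window held 0 of either and 3 GTCT, against 1 GTCT in Id2 and 0 in Id4. Of the 7 windows 4 held GGCGCC, those of Id2, Id4, Bmpr1a and Grem1, and 3 held CANNTG, those of Id2, Bmp4 and Smad6. Of all 32851 promoter windows of this length 11.9% held GGCGCC, 72.3% CANNTG and 88% GTCT. The motif is made of G and C alone and these windows are rich in them, at 60% to 79.3%, and among the 9690 windows with at least 60% G and C the share with GGCGCC was 30.9%. A match is a run of letters and shows neither binding nor a cause of any level.

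The other genes of the pathway were likewise without a call. Of 53 listed genes 48 were measured, and 0 passed adjusted p of 0.05 in limma, with 0 higher and 1 lower in KO at an unadjusted p under 0.05, against 1.61% and 1.71% of all genes. Their median log2 fold change was -0.04, with 19 above 0 and 29 below, beside 10703 above and 11477 below among all 22180 genes. Among 11 other ligands, Bmp3, a BMP that opposes the signalling of other family members, read 5.49, 5.66 and 5.66 on the KO arrays, against 5.79, 6.90 and 6.71 on the WT arrays. All KO arrays were below all WT arrays, as for 4.05% of genes, and the ratio was 0.551 with an interval from 0.361 to 0.840 (limma adjusted p = 1.0). WT replicates 2 and 3, where Bmp3 was high, were also the arrays with the highest luminal marker means, 8.61 and 8.25, and the part of those cells was not tested. Bmp10, best known from the heart, was dim, with means of 4.54 in KO cells and 4.33 in WT cells. Its log2 fold change was 0.21 ± 0.15 (SE), which lay between 0.11 and 0.32 when single arrays were left out.

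Among 9 other receptors and co-receptors, Bmpr1b, a second type I receptor, read 3.77, 3.95 and 3.59 on the KO arrays, against 3.80, 4.94 and 4.28 on the WT arrays. These signals were dim, KO replicate 2 lay above WT replicate 1, and the log2 fold change was -0.57 ± 0.26 (SE, limma adjusted p = 1.0), or -0.27 without WT replicate 2. Bmpr2, the type II receptor, was bright, between 12.5 and 12.7 on the KO arrays and between 12.3 and 12.7 on the WT arrays, and had a log2 fold change of 0.17, which lay between 0.09 and 0.32 when single arrays were left out. Of 5 SMADs, the receptor-regulated Smad1 and Smad9 had values of -0.20 ± 0.21 and 0.33 ± 0.27 (log2 fold change, SE). That of Smad1 lay between -0.40 and -0.06 when single arrays were left out. The value of Smad9 rested on WT replicate 3, without which it was -0.0037.

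Of 14 antagonists and modulators 7 were above 0 and 7 below. Bambi, a pseudoreceptor that lacks the kinase domain and is itself induced by BMP and TGF-beta signals, read 9.01, 9.13 and 8.31 on the KO arrays, against 8.48, 8.54 and 7.72 on the WT arrays. Arrays of the same number, which the labels do not call pairs, differed by 0.53, 0.59 and 0.59, although KO replicate 3 lay below WT replicates 1 and 2. A higher KO value at all 3 numbers held for 11.5% of all genes. The log2 fold change of Bambi was 0.57 ± 0.28 (SE, limma adjusted p = 1.0), and the adjusted p was 0.830 in the fit blocked by replicate number. Without WT replicate 3 the log2 fold change of Bambi was 0.31. Cer1, a secreted antagonist, was dim, with means of 4.88 in KO cells and 4.63 in WT cells. Its log2 fold change was 0.25 ± 0.18 (SE), and 0.40 without KO replicate 1, 0.15 without KO replicate 3 and 0.16 without WT replicate 3. Among 4 other target genes, Hey1, a transcriptional repressor induced by Notch and BMP signals, read 8.53, 8.72 and 8.28 on the KO arrays, against 8.31, 8.30 and 7.78 on the WT arrays. KO replicate 3 lay just under WT replicates 1 and 2, and the log2 fold change was 0.38 (limma adjusted p = 1.0), or 0.20 without WT replicate 3. Msx2, a homeobox BMP target, had the opposite sign, at -0.51 ± 0.24 (SE), or -0.31 without WT replicate 3 and -0.32 without KO replicate 3.

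**Figure D5:**
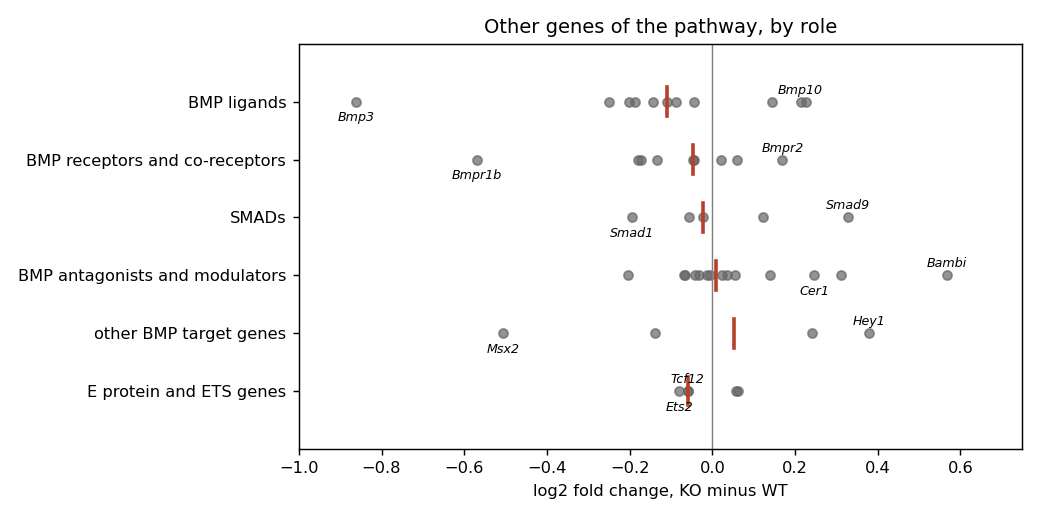
Log2 fold change, KO minus WT, of the 48 other measured pathway genes, 1 point per gene, by role, with the median of each role as a red bar. The named genes have the 2 smallest unadjusted p of their role. Bmp3 lies farthest below 0, at -0.86, and Bambi farthest above, at 0.57.

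The partners through which ID proteins act differed by little. Of 5 E protein and ETS genes, log2 fold changes lay between -0.08 and 0.06. Tcf12, which encodes the E protein HEB, had -0.06 ± 0.15 and Ets2, an ETS factor, had -0.08 ± 0.17 (SE, limma adjusted p = 1.0 for both). Cdkn2a, the gene known to be restrained by ID1, had a log2 fold change of 0.07 ± 0.20 (SE). Cdkn2a had both products deleted in the KO cells, so this value cannot report on restraint by ID1. Its neighbour Cdkn2b, which encodes the kinase inhibitor p15Ink4b, read 6.85, 6.90 and 7.01 on the KO arrays, against 6.62, 6.37 and 6.45 on the WT arrays. All KO arrays of Cdkn2b were above all WT arrays, as for 3.63% of genes, with a ratio of 1.36 (limma adjusted p = 1.0). 

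Many genes had profiles like those of the ID genes over the 6 arrays. Among 9615 named genes with a mean signal of at least 6, Slc37a1 and M6pr were most like Id1, both with a Pearson r of 0.995. Epb41l4aos (r = 0.990) and Pim2 (r = 0.987) were most like Id2, C87436 (r = 0.993) and Foxp4 (r = 0.991) most like Id3, and Mir574 and Tlr2 (both r = 0.991) most like Id4. Between 154 and 182 genes had r above 0.9 with each ID gene, so with 6 arrays a close match was common and singles out no partner. None of the 9 members was among these nearest genes, for which Bmp4 and Grem1, with means under 6, were not candidates. With 2 places per ID gene, this does not show whether the members vary together.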

How the data were processed

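Basal cells sorted by flow cytometry after enzymatic digestion and bead depletion of blood and endothelial cells were profiled, as the labels' protocols describe. Each deposited value is a log2 signal per probe set, made by the authors with RMA and Transcriptome Analysis Console 4.0, per the submitters' processing notes. RMA sets arrays to a common distribution, so changes shared by most genes are not visible. Arrays carry no read depth, so their number and the spread between them set the precision.

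Of 41345 rows, 23521 had exactly 1 symbol in the platform table, and per gene the row of highest mean was kept, leaving 22180 genes. KO minus WT was fitted by limma 3.58.1 (R 4.3.3), using lmFit and eBayes with trend. Tests were two-sided, p-values were adjusted over all genes by Benjamini-Hochberg with a threshold of 0.05, and the fit was tested on simulated data. KO and WT arrays of one number shared deviations from their group means, with a Pearson r across genes of 0.121, 0.250 and 0.127, each above 0.1, so the numbers were taken as pairs in a second fit with replicate as a block. WT replicate 1 correlated as much with KO replicate 3 (0.130). The labels do not link KO and WT arrays of the same number, so the pairing was taken from these data alone. Named pathway genes were the 2 of smallest p per role, and for each ID gene the 2 of highest Pearson r. Members and lists were chosen with earlier results of these data known. Of listed genes without a matched row (5 of the pathway list), none was analysed here. Alternatives were a prior without trend, weights per array, quantile normalization, median centring, a filter on dim genes, the mean of a gene's rows, the pairing, and each array left out. Promoter windows are RefSeq's (GRCm38.p6). Figures were drawn with matplotlib 3.10.9.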

Additional observations from a re-analysis of the deposited data

How the results depend on the processing

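Under all 13 alternatives 0 genes passed the adjusted threshold in limma, in either direction, and 0 of the 9 members did. At an unadjusted p under 0.05 the members' count was 1 of 9 (Id2) with array weights and with replicate as a block, where 8.88% and 5.01% of all genes lay. It was 0 to 1 when single arrays were left out, with 2.50% to 8.06% of all genes. The adjusted p of Id2 lay between 0.542 and 1.0 over the alternatives. Pairing by replicate changed no adjusted call. Id1, Id2 and Id4 kept their sign in all 13 alternatives, Id3 in 12. The prior without trend, the pairing, the dim-gene filter and the mean of a gene's rows cannot change these 4 estimates. Their sign under those settings was therefore fixed in advance.

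The log2 fold changes of these genes turned sign when 1 array was left out, Bmp4 between -0.22 and 0.041, Bmp7 between -0.068 and 0.28, Bmpr1a between -0.085 and 0.10, Smad6 between -0.11 and 0.20, Grem1 between -0.098 and 0.17, Id3 between -0.75 and 0.022, Ets2 between -0.19 and 0.083, Tcf12 between -0.11 and 0.0031, Smad9 between -0.0037 and 0.54, Cdkn2a between -0.13 and 0.19, C87436 between -0.28 and 0.043 and Mir574 between -0.032 and 0.36. With array weights the value was -0.19 for Id1, 0.87 for Id2, -0.12 for Id3, 0.86 for Bambi, 0.60 for Smad9, 0.098 for Bmpr1a, 0.12 for Smad6, 0.024 for Ets2 and -0.068 for Cdkn2a, and with quantile normalization 0.018 for both Bmpr1a and Smad6. The cause was not tested. Bmp4, Bmp10, Bmpr1b and Cer1, each with a mean under 5, had no value when dim genes were left out.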
